A study of Mus musculus with 2 samples.

Results

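The Aacs locus of mouse liver chromatin was described through the SREBP-2 peaks of the deposited list whose midpoints lay in a stretch of 25 kb on chromosome 5 (mm9) that covers the Aacs promoter and sequence upstream of it, from 6.34 kb before the midpoint of the first peak to 8.69 kb after that of the last. This rule found 2 of the 1800 peaks of the list, 1 near the promoter and 1 about 10 kb away at lower coordinates, here called the promoter peak and the upstream peak. The peaks were listed, and the locus was picked out, on the same reads that are counted below. Read counts and ratios at the peaks are therefore a description, with no test.

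The study measured where the transcription factor SREBP-2 sat on liver DNA by chromatin immunoprecipitation and sequencing (ChIP-seq). Both samples came from liver of the C57BL/6 mouse strain. In the SREBP-2 sample chromatin was precipitated by an antibody to mouse SREBP-2, made against a region of its amino-terminal, nuclear domain, and in the control sample with IgG, which has no chosen target. The labels state no genotype beyond the strain, and no age, diet, treatment or number of animals. Each antibody has 1 library, so the spread between animals or preparations is unknown for every value. Intervals are exact 95% Clopper-Pearson intervals and cover counting error only, since the reads come from amplified DNA with no molecular identifiers. Reads with the same 5′ end and strand were counted once. The SREBP-2 library then held 2396147 distinct reads and the IgG library 7011345.

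SREBP-2 is made as a membrane-bound precursor in the endoplasmic reticulum. When sterols are scarce, its amino-terminal part is released, enters the nucleus and activates genes of cholesterol synthesis and uptake, often beside the factors NF-Y and Sp1. Aacs encodes acetoacetyl-CoA synthetase, a cytosolic enzyme that activates the ketone body acetoacetate to acetoacetyl-CoA, which can feed the synthesis of cholesterol and fatty acids. Ketone bodies are made in liver mitochondria from fatty acids.

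In the RefSeq gene table of GRCm38.p6, Aacs lies on the plus strand of chromosome 5. It follows the long non-coding RNA gene Gm40325 and the protein-coding gene Bri3bp, and is followed by the protein-coding gene Tmem132b. That table is of another build than the deposited coordinates. Whether the peaks lie in an exon, an intron or between genes was therefore not analysed here, and the tie between the promoter peak and Aacs rests on the stated definition of the region. The RefSeq promoter of Aacs (GRCm38.p6, plus strand, the 250 bases before the annotated start) is shown because the promoter peak is named for it. Capitals mark a partial sterol regulatory element and 4 copies of a short repeat, both described below.

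Aacs promoter: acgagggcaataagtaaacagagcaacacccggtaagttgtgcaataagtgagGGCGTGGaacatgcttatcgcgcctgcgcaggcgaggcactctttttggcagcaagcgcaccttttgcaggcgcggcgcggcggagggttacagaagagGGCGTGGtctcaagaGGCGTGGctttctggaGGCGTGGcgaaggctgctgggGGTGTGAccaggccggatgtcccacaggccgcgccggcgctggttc

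The promoter had 62.4% G and C against a median of 52.4% over the RefSeq promoters (percentile 77.5). It held 22 CpG dinucleotides against a median of 6 (percentile 85.2). Motifs were searched on both strands of windows from 250 bases before to 50 after each start, of which RefSeq gave 32851. None of the 6 motifs of the search was found in the Aacs window. They were the sterol regulatory element TCACNCCAC (in 1.24% of all windows) and its looser form TCACNCNAC (2.70%), which includes it, and the E-box letters CACGTG (7.15%) and CANNTG (72.3%), the second of which includes the first. The others were the NF-Y box CCAAT (37.4%) and the Sp1 box GGGCGG (35.7%). This says only that these letters are not in this window.

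Further letters were looked for after the Aacs sequence had been read. The shorter TCACNCC, which is also the first part of TCACNCCAC, was present on the minus strand as TCACACC, 46 to 40 bases before the start, and occurs in 15.6% of all windows. The repeat GGCGTGG occurred 5 times in the Aacs window. On the plus strand, copies began 197, 98, 83 and 67 bases before the start, and a minus-strand copy lay 41 to 47 bases after it, outside the printed stretch. At least 1 copy was found in 8.55% of the windows and 5 or more in 6 of the 32851 (0.0183%), Aacs included. Since the repeat was picked from this very sequence, these shares are a description.

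Promoter letters of related genes were set beside those of Aacs by 3 lists, of which 29 of 41 genes had a RefSeq window. CCAAT was present in 14 of 14 genes of cholesterol synthesis with a window, among them Hmgcs1, which makes HMG-CoA from acetoacetyl-CoA, and Cyp51, a sterol demethylase. GGGCGG was present in 13 of those 14. Among 10 genes of ketone body and acetyl-CoA use, Aacs included, CCAAT was found in 4 and GGGCGG in 5, close to the 41.1% and 38.2% of all genes with a RefSeq window. Acss2 and Acly, both of which make cytosolic acetyl-CoA, had both boxes. Of 5 genes of sterol uptake and regulation, 4 had CCAAT and 5 had GGGCGG. The full element TCACNCCAC was found in Hmgcs1 and in no other listed gene with a window.

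The upstream peak spanned 125946123 to 125946548 on chromosome 5 (426 bp). It held 120 distinct SREBP-2 reads and 24 distinct IgG reads. Scaled to 1000000 distinct reads of each library (RPM), these were 50.1 and 3.42 RPM. With 1 read added to each count and scaled to library depth, SREBP-2 exceeded IgG 14.2-fold (interval 9.38 to 23.7). The promoter peak spanned 125956025 to 125956591 (567 bp). Here 89 reads came from SREBP-2 and 49 from IgG, or 37.1 and 6.99 RPM. Its ratio was 5.27 (3.71 to 7.69).

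At both peaks the ratio had a lower bound above 1. This was so at 92.4% of all listed peaks, so that count says nothing particular about Aacs. A lower bound above 3 was reached by both, where 8.06% of the list reached it. The upstream peak also had a bound above 5, as had 1.78% of the list.

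**Figure D1:**
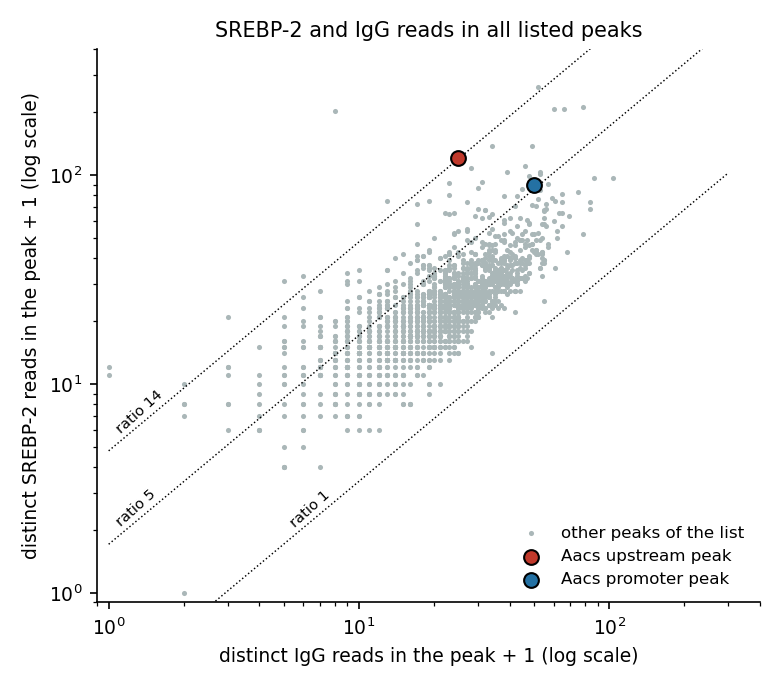
Distinct SREBP-2 reads (vertical axis) against distinct IgG reads (horizontal axis) in each of the 1800 listed peaks, each count with 1 read added, on log scales. Dotted lines mark SREBP-2 to IgG ratios of 1, 5 and 14. The Aacs upstream peak (120 and 24 reads) lies on the line of 14 above the bulk of the list, and the promoter peak (89 and 49 reads) lies near the line of 5 among peaks with many IgG reads.

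The peaks stood high in the list by SREBP-2 reads and apart from each other by IgG reads. In SREBP-2 reads the upstream peak had rank 8 of 1800 and the promoter peak rank 20, where the median peak held 21 reads. In IgG reads the upstream peak had rank 562 and the promoter peak rank 62, where the median was 19. By ratio the upstream peak had rank 10 in the list and rank 2 of the 147 peaks on chromosome 5. The promoter peak had rank 213 in the list and rank 18 on the chromosome. The median ratio of the list was 3.15, with 5th and 95th percentiles of 2.05 and 6.73, so the promoter peak lay between the median and the upper percentile and the upstream peak beyond it.

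The ratio at the upstream peak was 2.69 times that at the promoter peak (interval of the odds ratio 1.52 to 5.05). Both libraries contributed to this. Of the SREBP-2 reads in the pair 57.4% lay in the upstream peak (50.4% to 64.2%), and of the IgG reads 32.9% (22.3% to 44.9%). In reads, SREBP-2 was 1.35 times as high upstream as at the promoter, while IgG was 0.490 times as high. Per kb of peak, since the promoter peak is the wider, SREBP-2 was 1.795 times as dense upstream (282 against 157 reads per kb) and IgG 0.652 times as dense (56.3 against 86.4). Which library contributed more to the difference thus depended on the scale.

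In the flanks from 500 to 2500 bp beyond each side of the upstream peak there were 16 SREBP-2 reads in 4 kb, or 4 per kb, against 282 per kb in the peak, a density 70.4 times as high. For the promoter peak the flanks held 14 reads, or 3.5 per kb, against 157 per kb in the peak, 44.9 times as high. IgG was 4.695 times as dense in the upstream peak as in its flanks and 8.43 times as dense in the promoter peak as in its flanks. The IgG reads thus also gathered at both places, more so at the promoter.

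Along the region in 125 windows of 200 bp, the SREBP-2 reads were more concentrated than the IgG reads. The 6 windows that overlap the peaks held 73.9% of the SREBP-2 reads of the region (210 of 284) and 22.8% of the IgG reads (77 of 337). The highest window of the upstream peak, 125946201 to 125946400, held 102 SREBP-2 and 16 IgG reads (ratio 17.7, 10.95 to 33.9). The windows before and after it held 12 and 7 SREBP-2 reads beside 8 and 3 IgG reads.

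The windows of the promoter peak fell off in order of coordinate in SREBP-2 but not in IgG. The first, 125956001 to 125956200, held 59 SREBP-2 and 12 IgG reads (ratio 13.5, 7.65 to 29.4). The second held 25 and 24 (3.04, 1.67 to 5.57), and the third 5 and 14 (1.17, 0.295 to 3.07). The first window of the promoter peak thus had a ratio whose interval overlapped that of the whole upstream peak, and in the last the interval spanned 1.

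The lower bound lay above 1 in 5 of the 6 windows on the peaks. Among all windows that overlap listed peaks the share was 44.4%. Outside the peaks it did so in 0 of 119 windows, 101 of which held a read. Of all such windows with a read on the chromosomes with peaks 0.312% passed, so the 0 says nothing particular about Aacs. The upper bound lay below 1 in 0 of the 125 windows of the region, 107 of which held a read. Among all windows outside peaks with a read the share was 0.0173%. Outside the peaks a window held at most 4 SREBP-2 reads and at most 11 IgG reads, and 68 of the 119 had no SREBP-2 read, so a weak site would not be detectable at this depth. With all reads as deposited, copies included, 9 of the 101 with a read passed, where 9.83% of all such windows did. In windows of 400 bp, 2 of 58 outside the peaks passed, with empty windows counted, where 0.644% of all such windows with a read did. They passed on 3 SREBP-2 and 0 IgG reads at 125942801 to 125943200 and on 4 and 1 at 125958401 to 125958800.

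**Figure D2:**
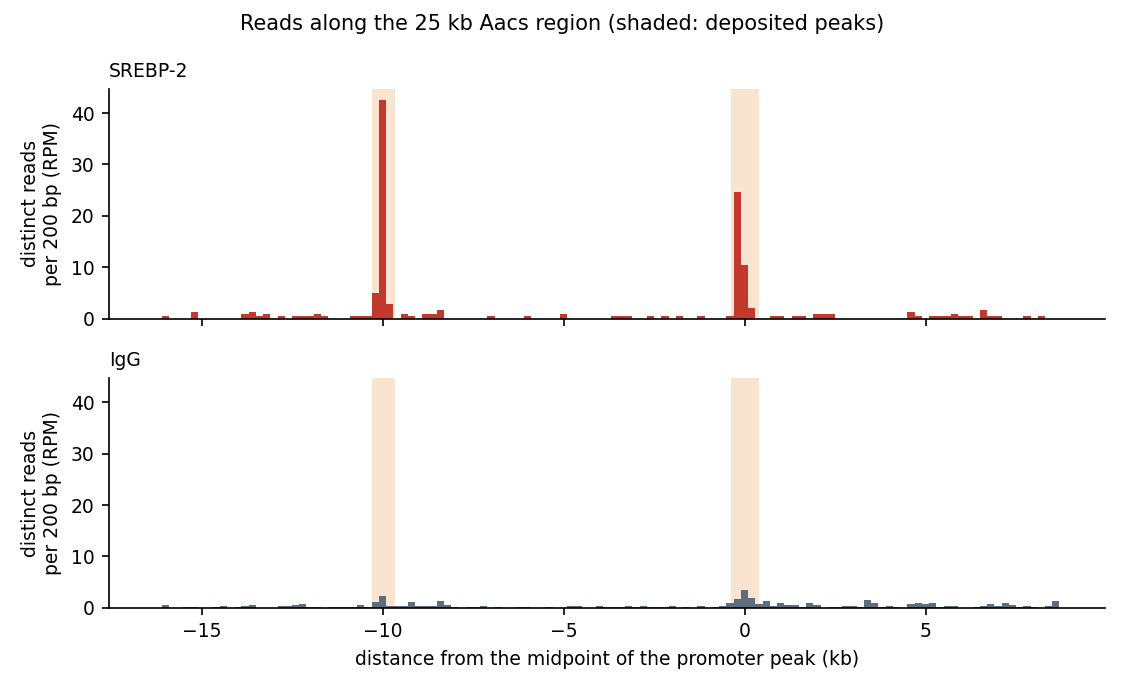
Distinct reads of each library in 200 bp windows, in RPM, along the 25 kb region, placed by distance in kb from the midpoint of the promoter peak, with SREBP-2 above and IgG below on the same vertical scale. Shading marks the deposited peaks, slightly widened on each side. SREBP-2 forms a pair of isolated spikes, the higher (102 reads in its top window) about 10 kb before the other (59 reads). IgG stays low on this scale but also gathers at the peaks, with its highest window (24 reads) in the promoter peak.

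Between the peaks SREBP-2 did not exceed IgG. In the 9.4 kb of windows between them there were 23 SREBP-2 reads beside 78 IgG reads (ratio 0.889, 0.517 to 1.39), so the pair was not joined by a plateau at this depth. The 6 kb before the upstream peak held 22 and 41 reads (1.60, 0.891 to 2.70). The 8.4 kb after the promoter peak held 29 and 141 reads, a ratio of 0.618 with an interval below 1 (0.389 to 0.902). IgG reads were denser there, at 16.8 per kb, than between the peaks (8.30 per kb), while SREBP-2 reads were 3.45 and 2.45 per kb. Over all windows outside the peaks the ratio was 0.841 (0.634 to 1.08).

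The order of the strands at both peaks was that of fragments read inward from their ends, with plus-strand 5′ ends at lower coordinates than minus-strand 5′ ends. At the upstream peak 60 plus-strand and 60 minus-strand SREBP-2 reads had their 5′ ends inside the bounds, and the minus-strand median lay 103 bp downstream of the plus-strand median (79 to 126 bp from the exact intervals of both medians). The middle 50% of the plus-strand ends spanned 41.5 bp and that of the minus-strand ends 46.5 bp. At the promoter peak 43 plus-strand and 44 minus-strand reads gave an offset of 121.5 bp (80 to 174 bp), with wider middle ranges of 114.5 bp and 98.3 bp. The strands were thus evenly filled at both sites, and the upstream site was the sharper.

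These offsets were ordinary to long for the list. Strand offsets were ranked in the 1073 peaks that had 20 or more SREBP-2 5′ ends. The minus-strand median was the downstream one in 93% of them, and the offset was 86 bp at the median, 54 bp at the 25th percentile and 107.5 bp at the 75th. The upstream peak lay at percentile 69.3 and the promoter peak at percentile 83.8. Both offsets were shorter than the 200 bp selected for the libraries. The IgG reads gave offsets of -3.5 bp at the upstream peak, from 8 plus-strand and 16 minus-strand reads, and of 61 bp at the promoter peak, from 23 and 28 reads. Their intervals (-265 to 188 bp and -132 to 254 bp) were too wide to give an order.

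**Figure D3:**
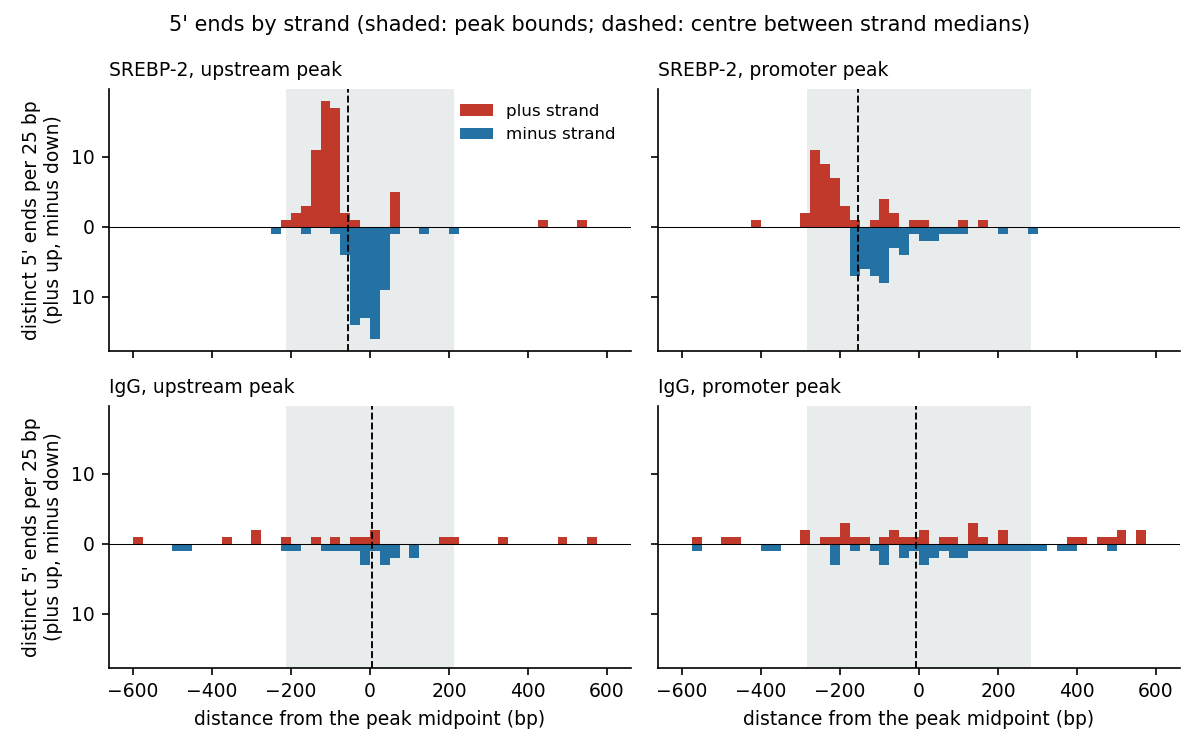
Distinct 5′ ends per 25 bp, plus strand upwards and minus strand downwards, against distance in bp from the peak midpoint, for SREBP-2 (top) and IgG (bottom) at the upstream (left) and promoter (right) peaks. Shading marks the peak bounds and the dashed line the centre between the strand medians. SREBP-2 ends form facing piles, centred 54.5 bp before the midpoint upstream and 154.25 bp before it at the promoter, while IgG ends are scattered.

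At the promoter peak the SREBP-2 reads sat to one side of the region the authors listed. The point midway between the strand medians was at 125956153.75, or 154.25 bp below the midpoint of the peak, a displacement at percentile 98.5 of the 1073 peaks (median 40.5 bp, 95th percentile 117 bp). The IgG reads of the same peak were centred at 125956301.5, 6.5 bp from the midpoint. The SREBP-2 centre thus lay 147.75 bp below the IgG centre (39 to 279 bp from the exact intervals of the medians). Only 5′ ends inside the bounds were used, which draws the centre of scattered reads to the midpoint. This distance is therefore largely the displacement from the midpoint again, not a separate observation. Among the 811 peaks with at least 20 reads of each library the median distance between the centres was 52.3 bp, and the promoter peak lay at percentile 93.1.

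The upstream peak was less displaced. Its SREBP-2 centre was at 125946281, 54.5 bp below the midpoint (percentile 64.3), and 59.3 bp below the IgG centre (percentile 56.7). The SREBP-2 centres of the pair were 9.87 kb apart, and the midpoints 9.97 kb. With reads moved 100 bp, 50.8% of the SREBP-2 reads of the upstream peak fell in its densest 100 bp, at 125946217 to 125946316. The densest 100 bp of IgG there held 12 of the 24 IgG reads (50%), at 125946199 to 125946298. At the promoter peak the densest 100 bp, at 125956114 to 125956213, held 52.8% of the SREBP-2 reads. The densest 100 bp of IgG, at 125956161 to 125956260, overlapped that stretch and held 30.6% of the IgG reads. These shares do not compare how concentrated the libraries were at either peak. The SREBP-2 strand medians were 103 bp apart upstream and 121.5 bp at the promoter, so the move carried the strands past each other. At the upstream peak the middle 50% of unmoved 5′ ends spanned 41.5 bp (plus) and 46.5 bp (minus) in SREBP-2. In IgG, on few reads, it spanned 110 and 86 bp. At the promoter peak it spanned 114.5 and 98.25 bp in SREBP-2, and 278 and 194.5 bp in IgG.

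Divided at the midpoint, the promoter peak had SREBP-2 over IgG on its lower-coordinate side. There, 76 SREBP-2 reads stood beside 26 IgG reads (ratio 8.345, 5.42 to 13.9), and on the other side 13 beside 23 (1.71, 0.770 to 3.41). The lower side thus had 85.4% of the SREBP-2 reads and 53.1% of the IgG reads. At the upstream peak the sides held 93 and 27 SREBP-2 reads beside 17 and 7 IgG reads, with ratios of 15.3 (9.48 to 28.6) and 10.2 (4.795 to 30.7). With reads moved 100 bp, both sides of the upstream peak were above IgG. At the promoter peak the upper side was not distinguishable from it at this depth. The sides of the upstream peak were not recomputed with another move. Its SREBP-2 strand medians were 103 bp apart, so the move carried plus-strand reads beyond the SREBP-2 centre, towards the upper side. Whether that side would stay above IgG was not tested. Aacs is on the plus strand in RefSeq, where lower coordinates are the upstream side, but this orientation comes from the other build.

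**Figure D4:**
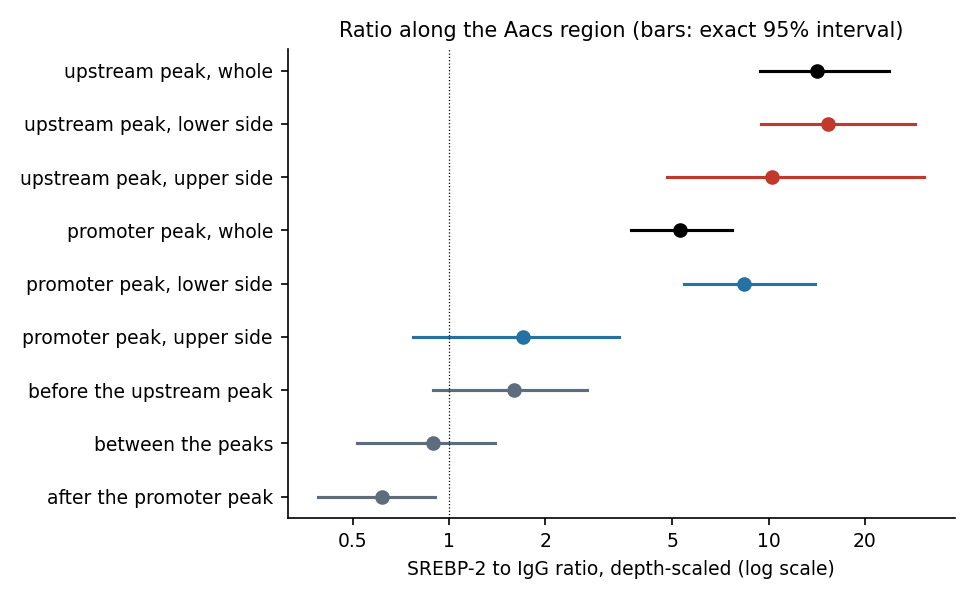
Depth-scaled SREBP-2 to IgG ratio (log scale) with its exact 95% interval for each whole peak, for the lower-coordinate and upper-coordinate sides of each peak, and for the stretches before, between and after the peaks. With reads moved 100 bp, both sides of the upstream peak and the lower side of the promoter peak (8.345) lie above 1. The upper side of the promoter peak (1.71) spans 1, and the stretch after the promoter peak (0.618) lies below it.

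Copies of reads were more frequent in SREBP-2 than in IgG at both sites, as in the whole libraries (3.05 and 1.82 reads for each distinct read). The upstream peak had 362 SREBP-2 reads as deposited, or 3.02 for each distinct read. This was percentile 98.9 of the same 1073 peaks, whose median was 1.92 and 95th percentile 2.54. The promoter peak had 213 reads as deposited, or 2.39 for each distinct read (percentile 91.1). For IgG the values were 1.625 and 1.39. At each site and for each library the value was below that of the whole library. No single stack made up the signal, since the highest position carried 12 reads (3.31%) at the upstream peak and 8 reads (3.76%) at the promoter peak. The libraries shared 4 of the distinct positions in the upstream peak and 2 in the promoter peak. The part of copying in the counts was not tested beyond counting all reads, where the ratios were 15.8 and 5.41.

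The IgG file mixes reads of 36 and 37 bases, and the longer ones made up 21.8% of the distinct IgG reads, with each length counted separately, and 9.49% of those in the listed peaks. At the upstream peak 22 of the IgG reads had 36 bases and 2 had 37. At the promoter peak 45 had 36 and 4 had 37. These shares of 8.33% (1.03% to 27.0%) and 8.16% (2.27% to 19.6%) were near that of the list. Against the 36-base reads alone the ratios were 12.1 (7.89 to 20.7) and 4.48 (3.13 to 6.64). Against the 37-base reads alone they were 25.7 (10.4 to 319) and 11.5 (5.35 to 53.2). The lower bound lay above 1 for both peaks with either control, where 82.8% of the list passed with the 36-base and 86.4% with the 37-base reads.

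Pairs of neighbouring peaks with midpoints 5 to 15 kb apart were ranked, a range that holds the 9.97 kb of the Aacs pair. There were 35 such pairs, and the Aacs pair held the most SREBP-2 reads among them. Pairs closer than 5 kb were not ranked, so these ranks hold within that range only. The Aacs pair had rank 1 of 35 by its summed SREBP-2 reads (209, median of the pairs 42) and rank 1 by the reads of its weaker member (89, median 13). By the ratio of its weaker member it had rank 2 (5.27, median 2.60). Beyond the region, the next listed peak before the pair lay 72.7 kb from the upstream peak, at 125873388 to 125873841, and its ratio was 4.13 from 23 reads of SREBP-2 and 16 of IgG. The next after it lay 2141.5 kb from the promoter peak, at 128097618 to 128098004, with a ratio of 3.39 from 21 and 18 reads. Neither came near the Aacs peaks in SREBP-2 reads.

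The listed peaks most like each Aacs peak were taken as the 3 nearest in the log2 of both read counts. Those like the upstream peak were on chromosome 9 at 42072206 to 42072636 (107 SREBP-2 and 27 IgG reads), on chromosome 14 at 67487565 to 67488126 (91 and 22) and on chromosome 15 at 59146231 to 59146790 (136 and 33). Their ratios were 11.3, 11.7 and 11.8. Their reads per distinct read were 2.08, 1.96 and 2.29, all lower than the 3.02 of the upstream peak. Those like the promoter peak were on chromosome 14 at 51550145 to 51550987 (86 and 51), on chromosome 4 at 147412574 to 147413271 (84 and 52) and on chromosome 12 at 117519155 to 117519987 (98 and 47), with ratios of 4.896, 4.69 and 6.04. The last of these was also displaced, with its SREBP-2 centre 144.25 bp below the midpoint, while the others lay 73.8 and 36.8 bp above theirs.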

How the data were processed

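ChIP-seq was done on mouse liver with 1 SREBP-2 and 1 IgG library, from 20 ng of DNA and fragments of 200 ± 5 bp, per the labels' protocols. The authors deposited aligned reads (7312431 SREBP-2 and 12762782 IgG) and 1 peak list as positions, with no score for the peaks. The sources used here name no aligner, peak caller or build. Coordinates are taken as mm9, as the region was defined. Reads on chromosome 7 reached 7.2 Mb past the last gene of the GRCm38.p6 table, so that table gave names, gene order and promoter sequences only. Starts are printed 1-based.

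Reads were counted once per 5′ end and strand, moved 100 bp and divided by the distinct reads of the library. That move is to the centre of a 200 bp fragment. The median strand offset of the ranked peaks was 86 bp, so at most of them the move carried the strands past each other. Counts by window, side and densest stretch are blurred by this. With reads moved 47 bp the ratios of the whole upstream and promoter peaks were 15.4 and 4.88. Ratios have 1 read added to each count. Scripts used Python 3.11.15, numpy 2.4.6, pandas 2.3.3 and scipy 1.17.1, and were tested on simulated data. Strand offsets used 5′ ends within the peak bounds. Alternatives covered the control reads, copies, shift, bounds, scaling and window size. Every peak of the region, and the 3 peaks elsewhere nearest to each in both counts, were named. The members, lists and measures were chosen with earlier results of these data known.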

Additional observations from a re-analysis of the deposited data

How the results depend on the processing

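Of 48 recomputed values 42 stayed within the interval of the reported value, or within 1.5 times a reported count, and 0 reversed. The 6 that moved were these. Against the 37-base IgG reads alone, which rest on 2 and 4 control reads, the ratio was 25.7 at the upstream peak and 11.5 at the promoter peak. With a lower bound above 2 in place of 1, 525 of the listed peaks passed in place of 1663, by construction. Outside the peaks 0 windows exceeded IgG, 2 did in windows of 400 bp and 9 did when every copy of a read was counted; for the wider windows the cause was not tested. On the peaks 2 of 4 windows of 400 bp passed in place of 5 of 6, as passing neighbours were joined and 1 passing window was joined with 1 that held 0 SREBP-2 reads. The ratio of the upstream to the promoter peak stayed between 2.24 and 2.93. The measures of the sides of the promoter peak, of the distance between library centres and their alternatives were added after the data were seen. With reads moved 47 bp the upper side of the promoter peak had a ratio of 1.08. No paired analysis was possible because each antibody has 1 library.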

Other observations

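The E-box letters CANNTG, found in a RefSeq promoter window of 74.99% of all genes, in 11 of 14 genes of cholesterol synthesis and in 5 of 5 genes of sterol uptake and regulation, were in 4 of 10 genes of ketone body and acetyl-CoA use. Aacs was among those without them. The partial element TCACNCC was found in 17.6% of all genes, and in 3 of 10 genes of ketone body and acetyl-CoA use, 2 of 14 of cholesterol synthesis and 2 of 5 of sterol uptake and regulation. Besides Aacs these were Acat2 and Bdh1 of the first list, Hmgcs1 and Msmo1 of cholesterol synthesis, and Insig2 and Srebf2 of sterol regulation. These are values on sequence alone, and no binding at those genes was analysed here.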
